A study of Mus musculus with 8 samples.

Results

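The loci of 6 dual-specificity phosphatase genes, Dusp1, Dusp2, Dusp4, Dusp5, Dusp6 and Dusp7, were examined for H3K27ac, acetylation on lysine 27 of histone H3, which marks promoters and enhancers in use. The genes were chosen by name out of 21887 protein-coding mouse genes. A locus was the gene interval in RefSeq (mm10 coordinates) with 50 kb on each side, and every H3K27ac peak that overlapped it was used. There were 31 such peaks in untreated clone a, 40 in untreated clone b, 40 in treated clone a and 44 in treated clone b. The peaks merged into 46 regions, out of 82792 in the genome. The cells were E14tg2a, a mouse embryonic stem cell line of 129SV background, and both groups carried a stable cRAF-ErT2 cassette, a RAF kinase that 4-hydroxytamoxifen (4OHT) switches on. Both groups were grown with serum, LIF and 2 uM Chir99021, a GSK3 inhibitor, and moved 24 h before treatment to serum, LIF and 250 nM PD173074, an FGF receptor inhibitor. One group was left untreated and the other received 250 nM 4OHT for 2 h, with 1 library from clone a and 1 from clone b in each group. The labels name no vehicle control and no cells without the cassette, so ERK activation and other effects of 4OHT cannot be told apart.

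MAP kinases such as ERK are active when a threonine and a tyrosine in their activation loop are both phosphorylated, and dual-specificity MAP kinase phosphatases remove both phosphates. Several of these genes are themselves transcribed in response to ERK signalling, which makes the enzymes negative feedback regulators of the pathway. DUSP1, DUSP2, DUSP4 and DUSP5 reside in the nucleus and are typically inducible, whereas DUSP6 and DUSP7 act on ERK in the cytoplasm. In embryonic stem cells FGF is the main source of ERK activity, and the FGF receptor inhibitor in the medium blocks that route.

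The 250 bases before the start of Dusp5, Dusp1, Dusp2 and Dusp6 are shown as examples. H3K27ac peaks lay at or close to these starts, and their presence or extent differed between the genes. At Dusp6 the peaks flanked the start without spanning it. Dusp7, which also had peaks at its start, is not shown. They come from RefSeq (GRCm38.p6, the assembly of mm10) and are written 5′ to 3′ on the strand of the gene, with matches to searched motifs in capitals.
Dusp5, chr19:53528895-53529144, plus strand: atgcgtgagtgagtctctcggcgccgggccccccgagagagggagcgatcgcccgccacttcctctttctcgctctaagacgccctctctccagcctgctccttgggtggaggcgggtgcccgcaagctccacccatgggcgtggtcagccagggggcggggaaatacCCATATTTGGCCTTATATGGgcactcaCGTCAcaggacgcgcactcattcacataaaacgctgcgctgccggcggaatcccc
Dusp1, chr17:26508473-26508722, minus strand: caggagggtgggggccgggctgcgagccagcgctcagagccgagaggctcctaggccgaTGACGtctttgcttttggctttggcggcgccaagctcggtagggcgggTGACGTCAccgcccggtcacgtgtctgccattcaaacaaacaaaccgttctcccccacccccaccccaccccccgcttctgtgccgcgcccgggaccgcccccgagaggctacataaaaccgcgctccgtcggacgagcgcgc
Dusp2, chr2:127335909-127336158, plus strand: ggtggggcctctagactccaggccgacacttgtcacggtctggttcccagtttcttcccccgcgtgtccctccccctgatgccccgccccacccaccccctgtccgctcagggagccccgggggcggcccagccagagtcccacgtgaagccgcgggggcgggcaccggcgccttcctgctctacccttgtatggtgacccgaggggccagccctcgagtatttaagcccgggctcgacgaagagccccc
Dusp6, chr10:99262981-99263230, plus strand: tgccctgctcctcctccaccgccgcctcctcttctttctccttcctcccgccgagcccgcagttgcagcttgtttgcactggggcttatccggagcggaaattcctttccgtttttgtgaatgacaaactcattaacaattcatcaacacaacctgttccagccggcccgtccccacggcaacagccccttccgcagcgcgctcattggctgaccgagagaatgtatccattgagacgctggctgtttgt
A promoter entry was matched for 5 of the 6 genes, Dusp4 being the exception, and motifs were searched from 250 bases before to 50 bases after the start. In Dusp5 the capitals mark 2 adjacent CArG boxes, the motif of serum response factor, which begin 82 and 72 bases before the start, and a match to the left part of the cyclic AMP response element (TGACG, either strand) 55 bases before it. A CArG box was present in 1.63% of 32851 promoters, and 6 promoters (0.0183%) held at least 2. In Dusp1 the capitals mark TGACG matches that begin 191, 143 and 140 bases before the start, of which the last pair are the strands of a single palindrome. TGACG on either strand occurred in 20.8% of promoters, and in Dusp2 it matched 5 bases after the start, outside the stretch shown. The ETS core CCGGAA (either strand, 14.9% of promoters), the AP-1 motif TGANTCA (either strand, 7.81%) and the TATA box TATAAA (strand of the gene, 8.32%) matched in none of the 5 promoters, and Dusp6 and Dusp7 held none of the 5 motifs. These letters describe the sequence and are not evidence of binding.

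The 4 lists held 59170 to 63276 peaks that covered 50.4 to 53.1 Mb, and read depth is unknown. Peaks lay within 1 kb of an end of 7 of 8 embryonic stem cell markers in every library, the exception being Esrrb. Of 8 fibroblast markers, 1 had such a peak in the untreated and 2 in the treated libraries (Col1a1 throughout and Twist1 after 4OHT; 0.51 to 0.568 against 1.84 to 2.6 kb in sum), with Col1a2, Twist2, Prrx1, Thy1, Lum and Dcn at 0. Of 5 mesoderm markers, 2 had one in each untreated and 5 in each treated library (0.665 to 0.906 against 2.7 to 3.39 kb). Of 6 primitive endoderm markers, only Sox7 had one, in treated clone b, and of 5 neural markers 2 had one in each library (Sox1 and Tubb3; 1.19 to 1.75 against 0.738 to 1.61 kb). The part of other cell types in the Dusp results was not tested. In a bulk library, more cells with the mark and more of the mark per cell cannot be told apart.

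The comparison addressed whether acetylated chromatin at these phosphatase genes changed within 2 h of 4OHT. Peak-covered length rose around Dusp5 and Dusp4 and did not pass the test without a clone term around Dusp1, Dusp6 and Dusp7, while Dusp2 had no peak before treatment and peaks in both clones after it. Both treated lengths lay above both untreated ones at Dusp1, Dusp2, Dusp4 and Dusp5, which was so for 30.3% of all 21887 genes. The length covered by peaks was summed per locus and library and compared with limma on log2(covered bp + 500) over 16049 protein-coding loci with a mean of at least 1000 bp. Of the 6 loci 5 passed that filter, 2 rose and 0 fell at an adjusted p of 0.05, where 4.00% of all loci rose and 2.87% fell. At an unadjusted p under 0.05, 3 were higher (with Dusp1) and 0 lower, against 17.0% and 10.8% of all loci. Both treated values exceeded both untreated ones at 3 of those 5, against 37.1% of all loci. The median log2 change was 0.57 over the 5 loci and 0.08 over all. In this and the following fits of 2 libraries against 2 without a clone term, an exact permutation test of a single locus could not go below p = 0.333 (two-sided). With clone as a factor that limit is higher, and with a library left out it is no lower.

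**Figure D1:**
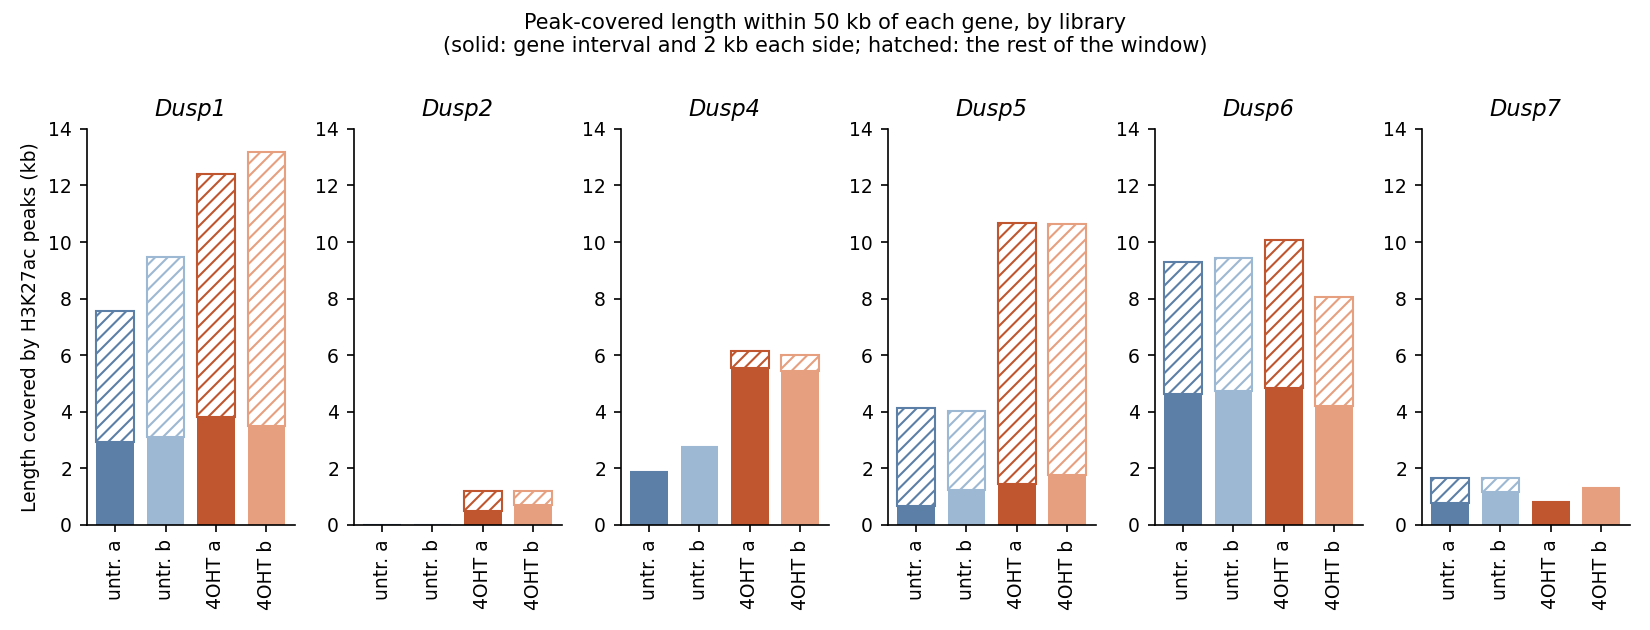
Length covered by H3K27ac peaks (kb, vertical axis) in each of the 4 libraries at the 6 loci, with 1 bar per library. The solid part is the gene interval with 2 kb on each side, and the hatched part is the rest of the 50 kb window. The treated bars stand above the untreated ones at Dusp1, Dusp2, Dusp4 and Dusp5, at about 10.6 against 4.1 kb for Dusp5, and overlap them at Dusp6.

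Single regions within the loci moved mostly towards longer coverage. Of the 46 regions, 7 were gained, that is, called in both treated and in neither untreated library, and 1 was lost, the opposite pattern (15.2% and 2.17%, against 6.20% and 6.26% of all regions). Coverage was longer in both treated than in both untreated libraries at 23 regions and shorter at 4 (50% and 8.7%, against 19.2% and 17.1% of all regions). The gained regions were 3 at Dusp1, 3 at Dusp2 and 1 at Dusp4, and the lost one was at Dusp7. Several gained regions ranked low by peak score within the treated lists. Their score percentiles in treated clones a and b were 59.5 and 55.4, 62.1 and 28.6, and 9.23 and 9.12 at Dusp1. At Dusp2 they were 4.0 and 34.8, 22.2 and 30.8, and 43.7 and 67.5, and at Dusp4 22.2 and 43.7. Regions called in all 4 libraries numbered 17 (37.0%, against 36.4% of all regions). Regions of a locus are neighbours and are not replicates.

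**Figure D2:**
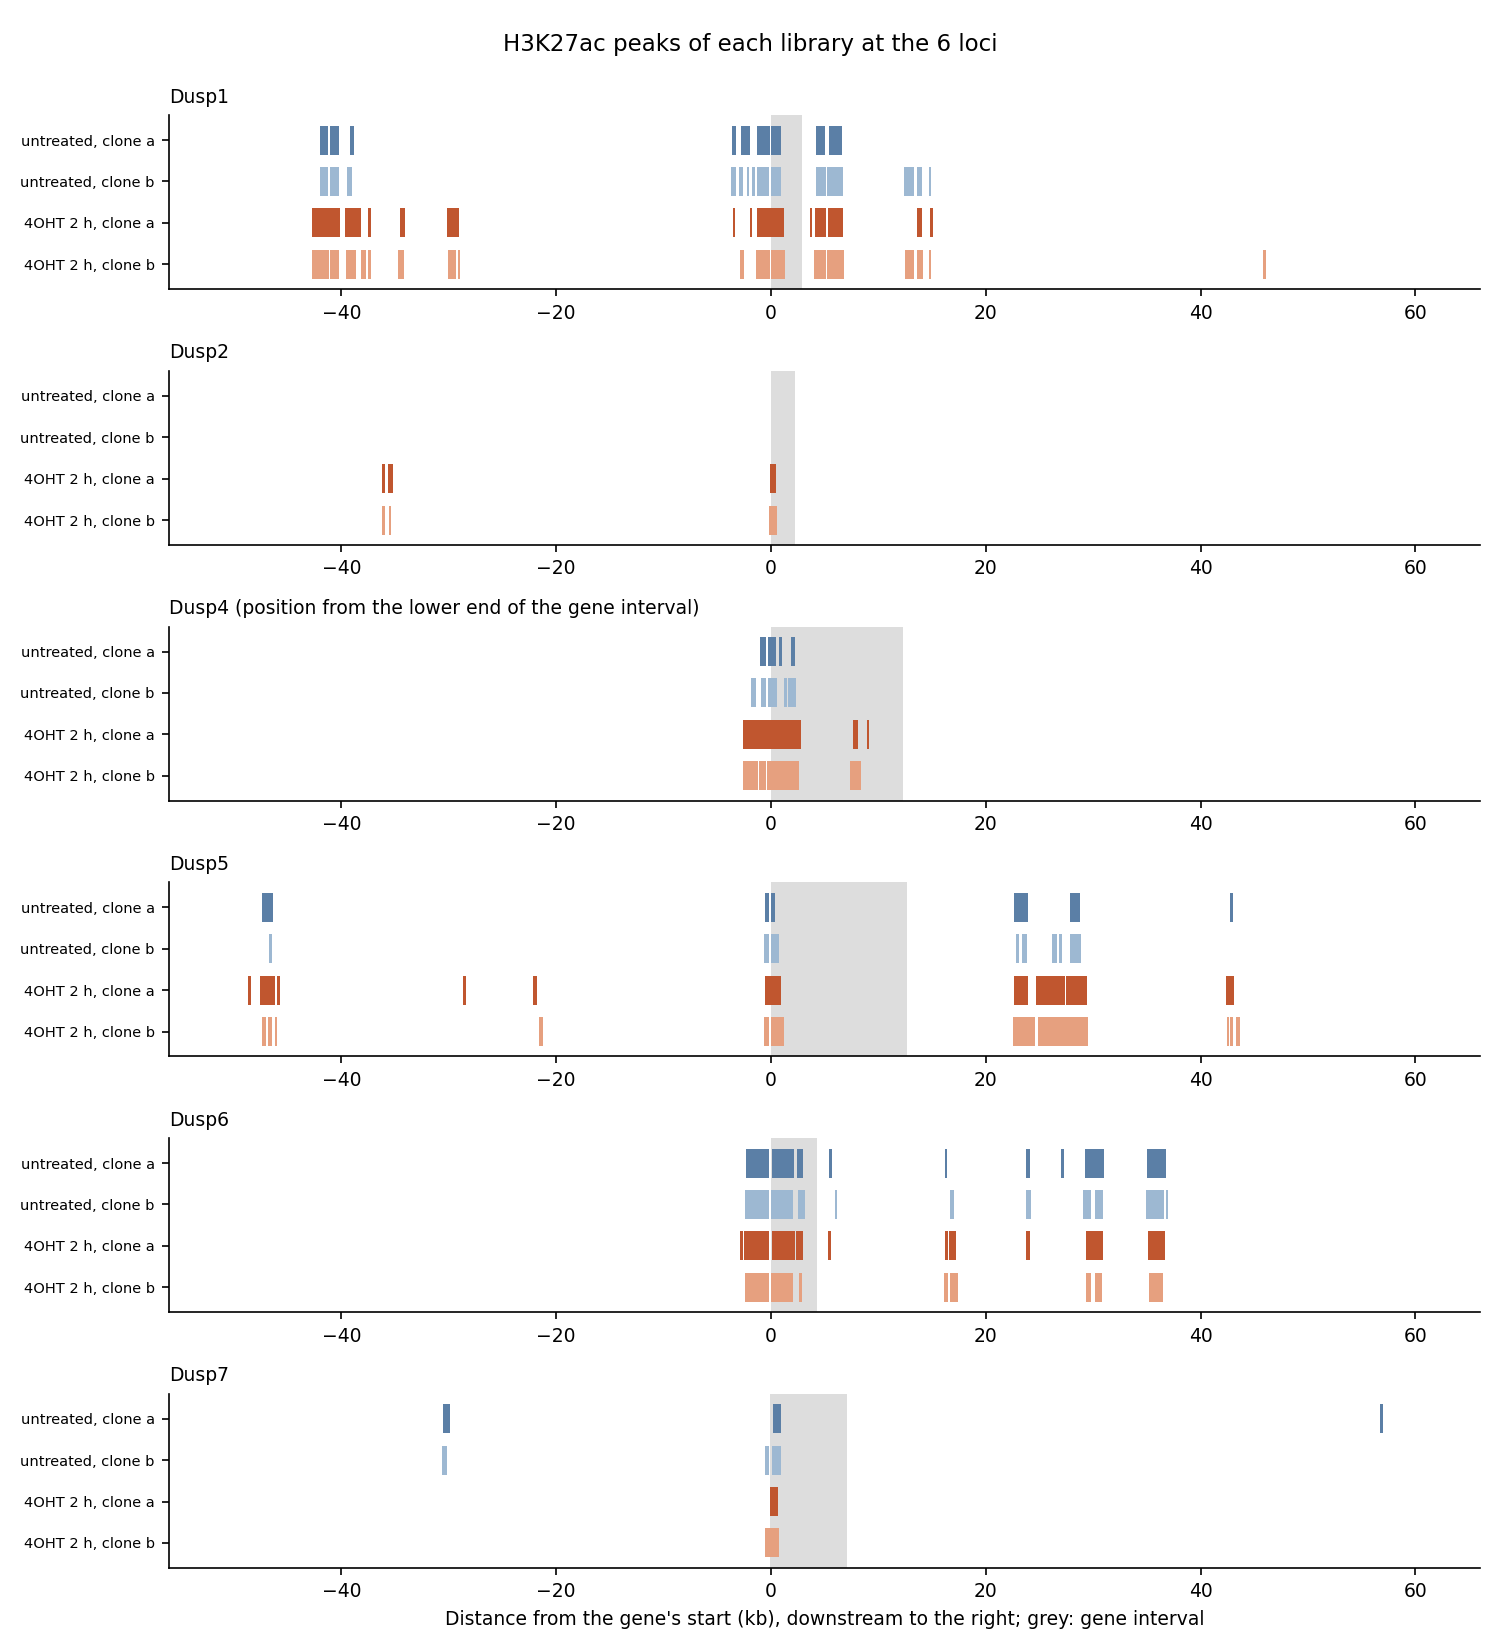
Peaks of each library (coloured blocks, 1 row per library) by distance from the start of the gene in kb, with the gene interval in grey. For Dusp4 the position is taken from the lower end of the interval. In the treated rows, blocks fill nearly all of the stretch from 24.7 to 29.5 kb at Dusp5 and from 2.6 kb before to 2.77 kb beyond the lower end of Dusp4, where the untreated rows hold separate shorter blocks.

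Dusp5 encodes a nuclear phosphatase selective for ERK. Peaks around it covered 4.145 and 4.014 kb in untreated clones a and b, against 10.66 and 10.63 kb in treated clones a and b. The treated values were close to each other and lay far above the untreated pair. The group means were 4.08 ± 0.0926 and 10.65 ± 0.0226 kb (SD, n = 2 clones), a ratio of 2.61, with a log2 change of 1.28 ± 0.12 (SE; limma adjusted p = 0.0240). Over all 16049 loci, 1.86% had a larger rise. The log2 change was 1.26 within clone a and 1.30 within clone b.

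No region at Dusp5 was gained or lost, so the added length came from regions already called in at least 1 untreated library and from small regions called in a single treated one. The largest share, 51.3% of the added length, lay in one region 24.7 to 29.5 kb downstream of the start, beyond the end of the gene (chr19:53553857-53558643). Peaks covered 0.939 and 1.604 kb of it in untreated clones a and b, against 4.672 and 4.609 kb in treated clones a and b. In treated clone b it was spanned by a single peak of 4.61 kb, wider than 99.1% of that list, whereas untreated clone a had 1 peak and untreated clone b had 3 narrower ones there. Its strongest peak stood at score percentile 63.8 and 60.4 of the untreated lists and 87.0 and 88.1 of the treated ones, each within its own list. The adjoining region at 22.5 to 24.6 kb covered 1.289 and 0.852 kb untreated and 1.292 and 2.028 kb treated, so treated clone a barely exceeded untreated clone a there. A region 45.7 to 47.5 kb upstream covered 0.971 and 0.309 kb before, and 1.632 and 1.009 kb after treatment.

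At the start of Dusp5 a region was called in all 4 libraries. The CArG boxes shown above lay within a peak in treated clone a and in a gap between peaks in the other 3 libraries. In the region peaks covered 0.669 and 1.249 kb in untreated clones a and b, against 1.451 and 1.751 kb in treated clones a and b. The groups did not overlap, but the untreated clones were spread by 0.41 kb (SD, n = 2). The gene with 2 kb on each side had a log2 change of 0.55 ± 0.24 (limma adjusted p = 0.285), and the rest of the window one of 1.41 ± 0.16 (adjusted p = 0.0287, where 3.85% of 13776 loci rose). The call over the full window ended without untreated clone a (adjusted p = 0.0617), treated clone a (0.0678) or treated clone b (0.0581), at log2 changes of 1.28 to 1.30, and among the top 20000 peaks of each list (3.67, adjusted p = 0.0563). It also ended with a window of 10 kb (log2 change 0.59, adjusted p = 0.257), which leaves out the downstream regions.

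Dusp4 encodes a nuclear phosphatase of ERK and JNK. Its locus held 1.867 and 2.76 kb of peaks in untreated clones a and b, against 6.141 and 6.013 kb in treated clones a and b. Both treated values lay far above both untreated ones. The means were 2.31 ± 0.631 and 6.08 ± 0.0905 kb (SD, n = 2), a ratio of 2.63, with a log2 change of 1.24 ± 0.20 (limma adjusted p = 0.0344), and 2.08% of all loci had a larger rise. The change was 1.49 within clone a and 0.998 within clone b.

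The added length at Dusp4 lay within the gene and at its lower end (chr8:34807610-34819894 for the gene; the tables used give no strand for it). One region across that end, from 2.6 kb before it to 2.77 kb inside, carried 75.7% of the added length. Untreated clone a had 4 separate peaks there and untreated clone b had 5, which covered 1.867 and 2.76 kb. Treated clone a had a single peak of 5.364 kb, wider than 99.2% of its list, and treated clone b had 3 peaks covering 4.964 kb. A second region, 7.37 to 8.42 kb inside the gene, was gained, with 0.529 and 1.049 kb in treated clones a and b. All 3 regions of the locus were nearest to Dusp4 itself, and the only other protein-coding gene in the window was Tnks, 9.29 kb away. The call ended without untreated clone a (log2 change 1.01, limma adjusted p = 0.0846), treated clone a (1.23, 0.105) or treated clone b (1.26, 0.0862), and with only the gene and 2 kb on each side (1.11, 0.0551). It also ended with each peak counted for its nearest gene (1.24, adjusted p = 0.0553), without the filter on length (1.24, 0.134), in the upper 50% of peaks by score (1.81, 0.105) and among the top 20000 (2.10, 0.0670).

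**Figure D3:**
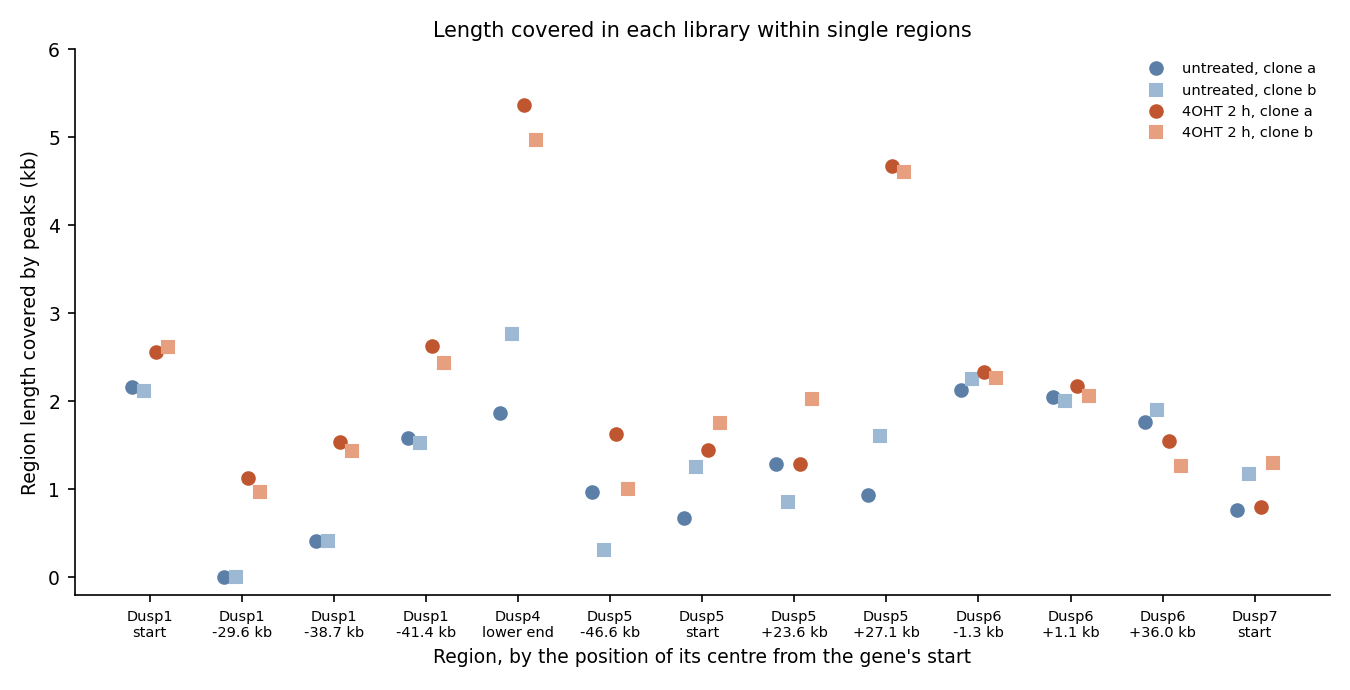
Length covered by peaks (kb, vertical axis) in each library within 13 single regions, labelled by gene and by the position of the region's centre from the start (the Dusp4 region lies across the lower end of the gene). Circles are clone a and squares clone b. The treated points at the Dusp4 end (5.36 and 4.96 kb) and at 27.1 kb of Dusp5 (4.67 and 4.61 kb) lie farthest from the untreated ones, while those of Dusp6 near its start lie close to them.

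Dusp1 is a classic immediate-early gene whose nuclear product acts on p38, JNK and ERK. Its locus had 7.544 and 9.486 kb in untreated clones a and b, against 12.42 and 13.19 kb in treated clones a and b. The groups did not overlap, and the untreated clones were farther apart than the treated ones. The means were 8.52 ± 1.37 and 12.81 ± 0.546 kb (SD, n = 2), with a log2 change of 0.57 ± 0.15 that did not pass the test (limma adjusted p = 0.0835). With clone as a factor it passed (adjusted p = 0.00297), in a fit in which 22.7% of all loci rose. That fit called 3 of the 5 loci, Dusp1 in addition to Dusp4 and Dusp5.

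At the Dusp1 start one region (chr17:26507144-26509903) was called in all 4 libraries. It covered 2.161 and 2.117 kb untreated and 2.560 and 2.619 kb treated in clones a and b, an increase of 0.45 kb between the means. Its strongest peaks ranked high in every list, at score percentiles of 93.5 to 98.8. Just upstream, at 1.52 to 2.95 kb, coverage was shorter after treatment, with 0.864 and 0.778 kb untreated against 0.200 and 0.376 kb treated. The adjoining region at 3.2 to 3.69 kb was shorter too, with 0.323 and 0.488 kb untreated against 0.25 and 0 kb treated.

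Most of the added length at Dusp1 lay 29.0 to 42.7 kb upstream of the start. The gained regions were all there, at 29.0 to 30.1 kb (1.133 and 0.970 kb in treated clones a and b), at 34.1 to 34.7 kb (0.449 and 0.503 kb) and at 37.2 to 37.5 kb (0.234 and 0.243 kb). A neighbouring region at 37.7 to 39.7 kb covered 0.415 and 0.418 kb untreated and 1.540 and 1.434 kb treated, a ratio of 3.57. The last, at 40.1 to 42.7 kb, covered 1.586 and 1.531 kb untreated and 2.628 and 2.437 kb treated. In each of these 5 regions the treated clones were close to each other and above both untreated clones. They are 29.6 to 41.4 kb from Dusp1 but 10.9 to 22.7 kb from Ergic1, the nearest protein-coding gene to all 5. The regions from 34.1 to 42.7 kb overlap the long non-coding RNA gene 1700049J03Rik, and the one at 34.1 to 34.7 kb also the pseudogene Gm8225. With each peak counted only for its nearest gene, the log2 change at Dusp1 was 0.08 (limma adjusted p = 0.862), and with a window of 10 kb it was -0.0215 (adjusted p = 0.946).

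Dusp2 encodes an inducible nuclear phosphatase best known from lymphocytes. No peak lay within its window in either untreated library, whereas 1.182 and 1.187 kb were covered in treated clones a and b. The pattern of no coverage in both untreated and some in both treated libraries was found at 0.973% of 21887 genes, and the opposite pattern at 0.754%. One gained region lay across the start, where the promoter shown above ends, with 0.497 and 0.715 kb in treated clones a and b (chr2:127336020-127336734). Its peaks stood at score percentiles 43.7 and 67.5 of their lists. The other 2 gained regions, 35.2 to 36.2 kb upstream, were 1.15 and 1.79 kb from Stard7. The locus was below the filter on length. Without that filter limma gave a log2 change of 1.75 ± 0.0137 (SE; adjusted p = 0.00301, where 88 of 21887 loci rose). The change depends on the pseudocount because the untreated lists are at 0. The small SE and the p-value also depend on this, since 2 values of 0 show no spread, so no conclusion is drawn from them. A signal just below the calling threshold leaves no entry in a list, so no peak does not mean no acetylation.

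Dusp6 encodes a cytoplasmic phosphatase specific for ERK and is a well-known target of FGF signalling. Its locus covered 9.307 and 9.42 kb in untreated clones a and b, against 10.07 and 8.059 kb in treated clones a and b. One treated value lay above and the other below the untreated pair. The log2 change was -0.05 ± 0.15 (limma adjusted p = 0.850), with 0.11 in clone a and -0.21 in clone b. The untreated locus, in the presence of the FGF receptor inhibitor, was already covered widely. Flanking the start, one region at 0.144 to 2.52 kb upstream covered 2.133 and 2.253 kb untreated and 2.336 and 2.269 kb treated in clones a and b. One at 0.031 to 2.26 kb downstream covered 2.054 and 2.003 kb untreated and 2.179 and 2.057 kb treated. In both regions the treated values lay slightly above the untreated ones, with ratios of the means of 1.05 and 1.04. The upstream one held peaks at score percentiles of 93.7 and 95.9 untreated and 96.9 and 96.0 treated.

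Away from its start, Dusp6 had regions that moved in opposite directions. At 16.6 to 17.4 kb downstream, coverage was 0 and 0.371 kb untreated and 0.648 and 0.765 kb treated, and at 16.1 to 16.5 kb it was 0.217 and 0 kb untreated and 0.291 and 0.320 kb treated. At 34.9 to 37.0 kb it was 1.763 and 1.906 kb untreated and 1.554 and 1.267 kb treated, the single region of the locus with both treated values below both untreated ones. Of the 12 regions, 4 were longer in both treated libraries and 1 was shorter (33.3% and 8.33%, against 19.2% and 17.1% of all regions). Among protein-coding genes all 12 regions were nearest to Dusp6, and 0 were gained or lost. Those at 5.34 to 5.64 kb and 5.93 to 6.2 kb downstream overlap the long non-coding RNA gene Gm34921.

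Dusp7 encodes a cytoplasmic phosphatase of ERK related to DUSP6. The locus had 1.671 and 1.656 kb in untreated clones a and b, against 0.799 and 1.3 kb in treated clones a and b. Both treated values were lower, with means of 1.66 ± 0.0106 and 1.05 ± 0.354 kb (SD, n = 2) and a log2 change of -0.50 ± 0.25 (limma adjusted p = 0.268; both treated below both untreated at 21.7% of loci). The region across the start did not follow this pattern and covered 0.76 and 1.176 kb untreated and 0.799 and 1.3 kb treated. In that region clone b had the longer coverage in each group. Its strongest peaks stood at score percentiles 29.7 and 50.3 untreated and 59.5 and 59.0 treated. The lost region lay 29.9 to 30.6 kb upstream, inside Poc1a, with 0.643 and 0.48 kb in untreated clones a and b. Its peaks ranked low, at score percentiles 29.7 and 0.741, so the loss rests on weak calls, as do several of the gains at other loci. The remaining region, 56.7 to 57.0 kb downstream and nearest to Rpl29 among protein-coding genes, had 0.268 kb in untreated clone a alone.

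**Figure D4:**
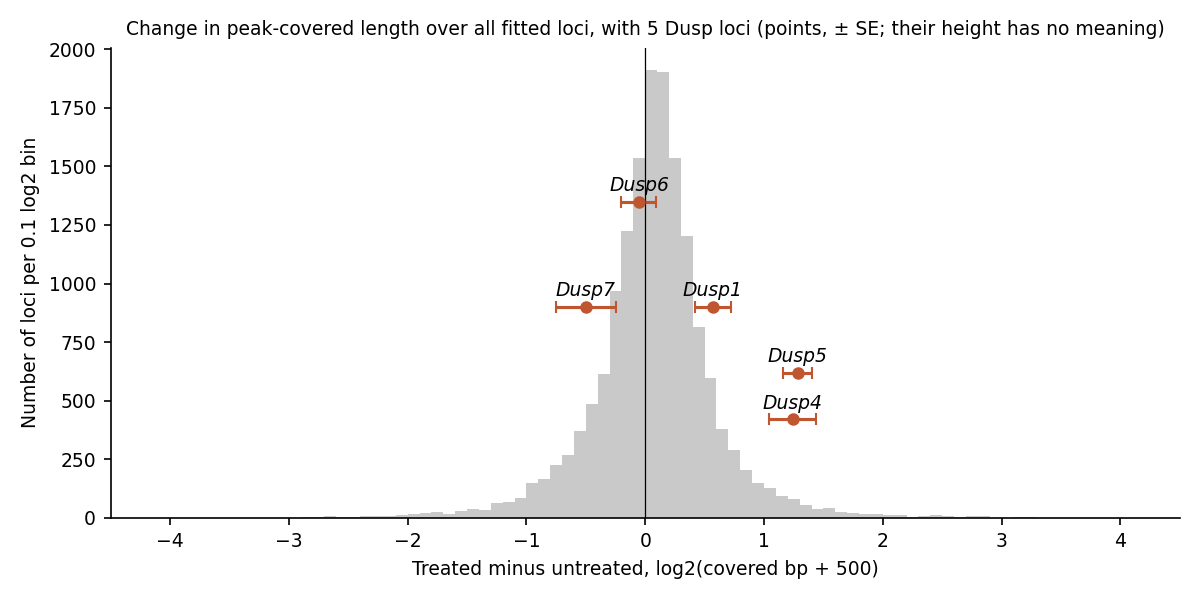
Number of loci (vertical axis) by treated minus untreated log2(covered bp + 500) over 16049 fitted loci, in bins of 0.1, with the 5 fitted Dusp loci as points with SE; the height of the points has no meaning. Dusp5 (1.28) and Dusp4 (1.24) lie in the upper tail, Dusp1 (0.57) on the upper shoulder, and Dusp6 (-0.05) and Dusp7 (-0.50) at or left of the centre.

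The loci differed in where the covered length lay. In the treated libraries the gene with 2 kb on each side held 90.4% of the length at Dusp4, 49.9% at Dusp6, 28.5% at Dusp1 and 15% at Dusp5. For Dusp5 and Dusp1 the share was 23.5% and 35.5% when untreated. In that near part 0 of 5 loci rose and 0 fell without a clone term (limma; 2.49% of 9872 loci rose and 1.67% fell), with 1 higher and 0 lower at an unadjusted p under 0.05 (14.1% and 7.65% of all). With clone as a factor Dusp4 rose and 0 fell (adjusted p = 0.00858, where 12.1% rose and 8.27% fell). In the rest of the window, of the 3 loci past the filter, Dusp5 rose, as given above, and 0 fell (2.77% of all fell). With clone as a factor Dusp1 rose too (log2 change 0.70, limma adjusted p = 0.00151) and 0 fell, where 22.0% of all rose and 16.5% fell. Splitting the window in this way was chosen after seeing the data.

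Other genes of the pathway showed no change that passed the test without a clone term, which Dusp1 did not pass either. Of 4 further MAP kinase phosphatases, Dusp8, Dusp9, Dusp10 and Dusp16, 0 rose and 0 fell, with log2 changes of -0.67 to 0.68 and a median of 0.12. At an unadjusted p under 0.05 in limma, 2 of them were higher and 1 lower, where 17.0% and 10.8% of all loci were. Without a clone term Dusp10 (0.66, limma adjusted p = 0.0860) and Dusp16 (0.68, 0.0978) had values near those of Dusp1 (0.57, 0.0835). Gained and lost regions numbered 4 and 0 at Dusp16, 1 and 0 at Dusp10, 0 and 1 at Dusp9 and 0 and 0 at Dusp8. At least 1 gained region was found at 37.5% of 16049 loci, and at least 1 lost region at 30.7%. With clone as a factor 2 rose, Dusp10 (0.66, limma adjusted p = 0.00432) and Dusp16 (0.68, 0.00163), and 1 fell, Dusp8 (-0.67, 0.00415), whose product acts on JNK and p38. Of 20 genes of the cascade from FGF receptors through RAS and RAF to ERK, 0 rose and 0 fell (limma; median 0.10), and 4 were higher and 1 lower at an unadjusted p under 0.05, against 17.0% and 10.8% of all loci. Of these 20 genes, 5 rose and 1 fell with clone as a factor, where 22.7% and 15.5% of all loci did. The 5 were Braf (0.88, adjusted p = 0.00123), Araf (0.46, 0.00868) and Map2k2 (0.32, 0.00885), which encode kinases upstream of ERK, Mapk3 (0.36, 0.0159), which encodes ERK1, and Grb2 (0.25, 0.0224), which encodes an adaptor protein. The one that fell was Fgfr2 (-1.15, 0.00660), an FGF receptor gene.

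The loci outside each window with the most similar lengths over the 4 libraries, by Euclidean distance on the log2 scale, were Spatc1 (distance 0.174) and Tmed2 (0.179) for Dusp5, and Cdh2 (0.115) and Dda1 (0.142) for Dusp4. They were Mapk12 (0.0751) and Nptxr (0.113) for Dusp1, Glod4 (0.087) and Gm572 (0.0914) for Dusp6, and Alms1 (0.131) and Agr2 (0.172) for Dusp7. This measure covers only 4 libraries and says which loci had like levels.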

How the data were processed

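The 4 libraries are H3K27ac ChIP-seq; the 4 inputs were not analysed here. Bowtie2, bedtools and MACS2 were used on mm10, per the submitters' processing notes. Their versions and thresholds, and any use of the inputs, are not given in the sources used. The authors deposited 1 peak list per library, with a score of unstated scale for each peak, which served here to rank and select peaks inside that list alone. Covered length moves with the amount of peaks called per library.

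Peaks overlapping by 1 bp were merged into union regions (Python 3.11.15, numpy 2.4.6, pandas 2.3.3). Covered length per locus was fitted with limma 3.58.1 (R 4.3.3; mean-dependent prior variance, Benjamini-Hochberg over all loci, no clone term), and the scripts were tested on simulated data. Loci whose windows overlap share peaks. Clones in the labels pair the treatments, so clone was added as a factor in a second fit (deviations of clone a correlated at 0.611 over loci). With 2 clones per group, p-values of the first fit rest on the spread between these clones, moderated towards that of all loci (3.32 prior against 2 residual degrees of freedom). In the second fit the level difference between clones is removed. Its p-values rest on how far the change differed between the clones, moderated in the same way. The named genes were the 6 members, the 2 most similar loci of each of the 5 fitted ones, neighbours, 24 pathway genes and cell type markers. Members and lists were chosen with earlier results of these data known.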

Additional observations from a re-analysis of the deposited data

Results flagged for a closer look

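At Dusp6 the clones moved in opposite directions: treated minus untreated log2(covered bp + 500) was 0.107 in clone a and -0.213 in clone b. Each clone has 1 library per treatment, so the difference between the clones was not tested.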

How the results depend on the processing

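Without the clone term 2 of 5 loci rose, and 0 fell in any setting. A replicate block on the clone gave 3, with Dusp1 added. The count was 1 with 10 kb windows, with peaks counted for the nearest gene and in the upper 50% by score, 0 among the top 20000 peaks, and 0 to 2 with a library left out, where the lone library is assumed to vary like the others. Without the length filter it was 2, but Dusp5 and Dusp2, the latter with untreated values of 0. The near part gave 0 (1 with the block) and the distal part 1. The value at Dusp1 turned to -0.0215 with 10 kb windows. At Dusp6 it was 0.0148 and 0.18 with 10 and 100 kb windows, and -0.20 to 0.10 with a library left out. At Dusp7 it was 0.0735 with 10 kb windows, nearest-gene counting and the near part (with or without the block), and 0.16 with 100 kb. None of these reversed values passed the test, and the cause was not tested. Gained and lost regions (7 and 1 of 46) were 2 and 0 of 20 with 10 kb, 11 and 3 of 104 with 100 kb, and 10 and 2 when 50% of a region had to be covered (7.88% and 8.1% of all regions). They were 5 and 1 of 25 in the upper 50% of peaks by score (6.27% and 6.11% of all regions). Among the top 20000 peaks they were 5 and 1 of 17 (6.93% and 6.12% of all regions). With a library left out they were 9 to 13 and 1 to 3, while the share of all regions gained moved from 6.20% to between 8.58% and 15.9%, and that lost from 6.26% to between 8.66% and 15.1%. Over all loci, 642 rose and 461 fell, 3639 and 2486 with the block, 88 and 53 without the length filter, 196 and 183 with nearest-gene counting, 179 and 139 when only the upper 50% of peaks was used, and 0 and 0 among the top 20000 (limma; 2883 at unadjusted p under 0.05). They were 393 and 278 with 10 kb windows, 5 and 0 without untreated clone a, 0 and 0 without treated clone a (3225 at unadjusted p under 0.05), and 30 and 73 without treated clone b. Dusp4 and Dusp5 were longer after treatment in all 14 other settings of the full fit, and passed in 7 and 9. Read depth is unknown, so a peak lost at the calling threshold cannot be told from one truly absent.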
